A study of Homo sapiens with 47 samples.

Results

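The HOX clusters hold, besides their protein-coding genes, a set of long noncoding RNAs that are mostly transcribed from the opposite strand to the HOX genes. Their levels were followed here for 10 listed transcripts out of 58051 genes: HOTAIRM1, AC004080.1, HOXA-AS2, HOXA-AS3 and HOTTIP of the HOXA cluster and its flank, HOXB-AS1 and HOXB-AS3 of HOXB, HOTAIR and HOXC-AS1 of HOXC, and HAGLR of HOXD. They were chosen by name, and each was found through its Ensembl identifier in all 47 libraries. All 10 passed the filter on low counts in both sets of libraries tested.

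The libraries were polyA-selected RNA of WA09 (H9), an established hESC line. Undifferentiated cells (t0) were kept in mTESR1. NMP-like cells were made by 36 h in N2B27 (-vitamin A) with CHIR-99021 (a WNT agonist), rhFGF2 and AGN193109 (a retinoic acid receptor inverse agonist). The medium also held Y-27632 (a ROCK inhibitor). Cells were then replated in medium with the same agents and passaged to P10. All groups after t0 therefore share all 4 agents, but not always at the same dose. The paper reports that early passages needed more Y-27632 for attachment than other time points did. That dose therefore differs between P1 and P5. No untreated culture of the same age was compared. Whole cultures comprised 35 libraries, from 3 independent differentiations (r1, r2 and r3) at t0, 36h and each passage, except P9, where r1 and r2 were analysed. A further 12 libraries were fractions of P5 and P8 cultures, enriched by selective TrypLE detachment into epithelial (EPI) and mesenchymal (MES) cells, with 3 of each. An enriched fraction is not a pure population, and all libraries come from 1 cell line.

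HOX genes are switched on in the order of their position along each cluster, and the set that a cell expresses records its level along the body axis. Noncoding RNAs in the clusters are known as partners of this process. HOTAIRM1 lies at the early end of HOXA, HOTTIP lies beside HOXA13 at the late end and has been described as bringing the WDR5 and MLL complex to nearby HOXA genes, and HOTAIR lies in HOXC and is known for its contacts with Polycomb repressive complex 2.

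The libraries held between 13029491 and 64082859 expected counts. The pluripotency genes POU5F1 and NANOG summed to between 60563 and 63238 normalized counts at t0 and to at most 14.9 at P8. The NMP markers TBXT, CDX1, CDX2 and NKX1-2 summed to between 1240 and 1527 at t0 and between 15503 and 54221 at 36h. The mesoderm markers TBX6, MSGN1 and MEOX1 summed to between 92.4 and 136 at t0 and between 271 and 16098 at 36h, and the neuron markers ELAVL3 and STMN2 to between 325 and 502 and between 1158 and 3650. Their part in the 36h results was not tested. The endoderm markers SOX17 and FOXA2 summed to at most 14.5 at t0 and 429 at 36h and were at or under 3 counts in every library from P4 on. Some r1 libraries stood apart from their groups. P1 r1 had 103 normalized counts of HOXB-AS3, beside 10425 and 8722 in r2 and r3. P2 r1 had 24335 of HOXA-AS3, beside 3536 and 2190. P10 r1 lay within the range of the P8 libraries for 7 of the 10 RNAs and above it for the other 3. Results at P10 are therefore given with and without P10 r1. Among the 36h libraries, r3 was the highest for every RNA called there.

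On GRCh38 with GENCODE 29, HOTAIRM1 spans chr7:27095647-27100265 on the plus strand. HOXA-AS2 spans chr7:27107777-27134302 and HOXA-AS3 chr7:27129977-27155928, both on the plus strand, and HOXA-AS3 shares 1507 exonic bases with HOXA7. HOTTIP spans chr7:27198575-27207259 on the plus strand and overlaps HOXA13 by 86 exonic bases. AC004080.1, a lincRNA at chr7:27239243-27241228 on the minus strand, lies 39137 bases outside HOXA13 and overlaps no annotated gene. EVX1 and EVX1-AS also lie on this flank of the cluster. HOXB-AS1 spans chr17:48543551-48551250 and HOXB-AS3 chr17:48549630-48606414, both on the plus strand. HOTAIR spans chr12:53962308-53974956 and HOXC-AS1 chr12:53999022-54000010, both on the minus strand. HOTAIR overlaps the first part of HOXC11 without sharing exonic bases, and HOXC-AS1 lies within the spans of HOXC9 and HOXC6. HAGLR spans chr2:176164051-176188958 on the minus strand, from HOXD3 across the start of HOXD1.

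Because most of these RNAs are antisense to a HOX gene, it matters whether reads were counted by strand, which the sources used here do not state. RSEM gives fractional counts where it divides reads between genes. Of genes that share at least 100 exonic bases with a gene on the same strand, 72.2% of 2102 had fractional counts in most libraries. Of genes that share as much with the opposite strand only, 10.3% of 2384 did, close to the 12.7% of 10693 genes that share exons with no gene. The deposited counts carry 2 decimals, and those of 8 of the 10 RNAs were exactly whole at that precision in all 47 libraries. The exceptions were HOTAIRM1 and HOTTIP, whose exons hold small RNA models on their own strand, of which 1 had a summed count of its own equal to 6.04% of that of HOTAIRM1. HOXA13, which overlaps HOTTIP, had whole counts by the same measure in all libraries.

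Promoters are shown for 3 RNAs of HOXA, taken from the RefSeq table for GRCh38.p14, which matched 6 of the 10 and had no entry for HOTAIRM1, AC004080.1, HOTAIR or HOXC-AS1. They stand at different points of the cluster and of the time course: HOXA-AS2 rose at 36h and HOTTIP last, and HOXA-AS3 has the most exonic bases in common with a HOX gene on the other strand. Each runs from 250 bases before to 50 bases after the start. Capitals mark matches, on either strand, to TTTATNG (a CDX motif), AGGTCA (a retinoic acid receptor half-site) or CTTTGAT (a TCF/LEF motif). These motifs were chosen because CDX2 is expressed here and the medium acts on the other pathways. The windows are chr7:27121669-27121968, chr7:27146913-27147212 and chr7:27200171-27200470, all on the plus strand.
HOXA-AS2 promoter: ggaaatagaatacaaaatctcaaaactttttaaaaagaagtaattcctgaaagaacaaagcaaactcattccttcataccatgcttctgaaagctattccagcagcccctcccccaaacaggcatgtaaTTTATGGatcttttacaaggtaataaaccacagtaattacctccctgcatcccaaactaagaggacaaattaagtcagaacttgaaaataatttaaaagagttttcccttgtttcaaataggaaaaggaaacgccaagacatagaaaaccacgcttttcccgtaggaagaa
HOXA-AS3 promoter: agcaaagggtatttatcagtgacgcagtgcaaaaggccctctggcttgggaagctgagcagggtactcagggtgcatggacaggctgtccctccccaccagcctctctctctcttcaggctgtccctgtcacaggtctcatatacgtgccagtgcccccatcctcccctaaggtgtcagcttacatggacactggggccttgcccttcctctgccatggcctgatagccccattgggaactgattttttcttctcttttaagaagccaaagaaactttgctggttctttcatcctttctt
HOTTIP promoter: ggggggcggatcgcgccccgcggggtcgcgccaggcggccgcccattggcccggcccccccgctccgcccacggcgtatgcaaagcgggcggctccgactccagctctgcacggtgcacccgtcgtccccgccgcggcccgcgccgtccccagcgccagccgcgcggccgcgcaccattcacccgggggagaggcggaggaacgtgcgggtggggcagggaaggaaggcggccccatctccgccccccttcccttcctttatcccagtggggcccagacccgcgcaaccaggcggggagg

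The HOXA-AS2 window held 1 match, to the CDX motif, and the windows of HOXA-AS3 and HOTTIP held none of the 3 motifs. Among windows not shown, those of HOXB-AS1 and those of HAGLR outside coding exons held none either. Of 35116 promoters of the same length, 9.73% held the CDX motif, 13.8% the retinoic acid receptor half-site and 2.62% the TCF/LEF motif. The HOTTIP start lies 315 bases from the 5′ end of HOXA13, with the genes pointing away from each other.

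For AC004080.1, which is among the earliest to rise, the first 150 spliced bases of an annotated GENCODE 29 transcript are given, in lower case throughout. They lie at chr7:27239850-27241228 on the minus strand and overlap no exon of a coding gene.
AC004080.1 transcript start: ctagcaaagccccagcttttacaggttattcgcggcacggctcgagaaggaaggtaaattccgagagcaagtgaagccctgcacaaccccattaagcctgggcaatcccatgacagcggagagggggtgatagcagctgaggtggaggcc

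**Figure D1:**
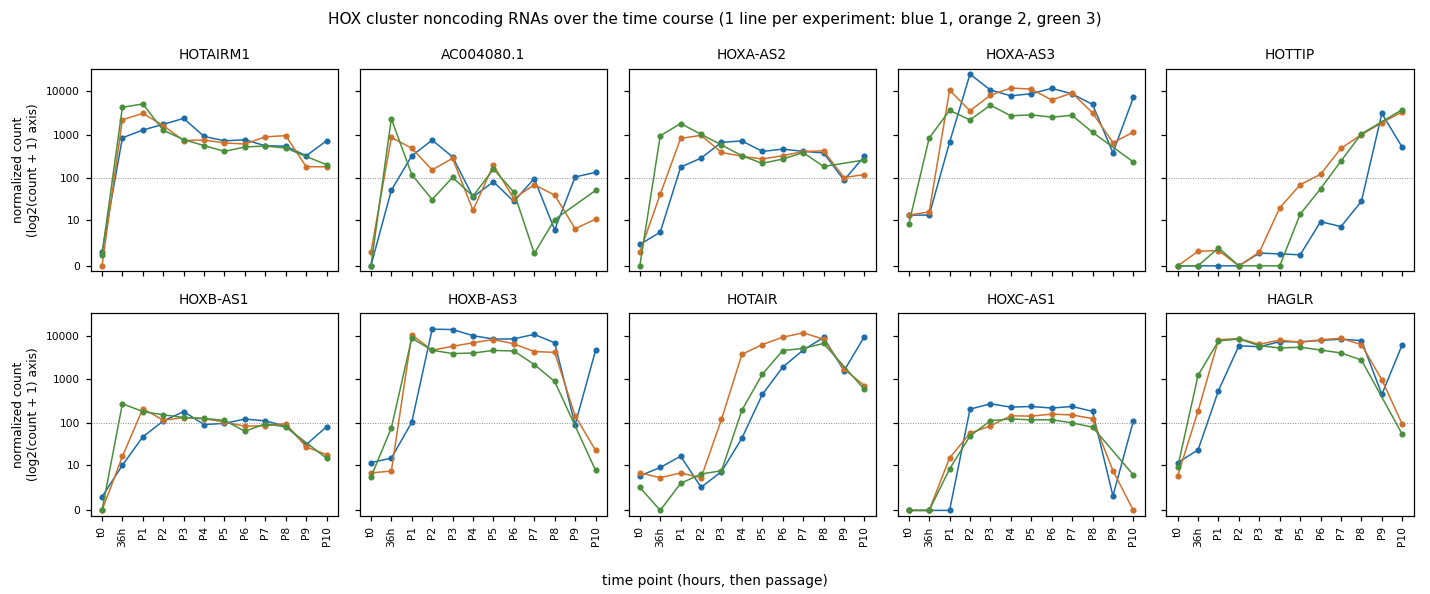
Normalized counts of the 10 RNAs (y axis, log2(count + 1) scale) at each time point (x axis), with 1 line per differentiation and a dotted line at 100. HOTAIRM1 and AC004080.1 rise at 36h. HOTAIR passes 100 between P3 and P5, by differentiation, and is lower at P9 than at P8. HOTTIP passes 100 between P6 and P9. For HOXB-AS3, HOTAIR, HOXC-AS1 and HAGLR, P10 r1 lies far above r2 and r3. The r3 line has no P9 point.

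The first comparison asks which RNAs respond within 36 h. HOTAIRM1, AC004080.1 and HOXA-AS2 rose, and none of the 10 fell. HOTAIRM1 had 1.04, 0 and 0.794 normalized counts (counts divided by a size factor for each library) at t0 r1, r2 and r3, and 852, 2207 and 4260 at 36h. Every 36h library was far above every t0 library. This is at least an 851-fold rise, taken against a floor of 3 counts per t0 library, with a log2 fold change of 11.75 ± 1.01 (SE, n = 3 per group; edgeR, Benjamini-Hochberg adjusted p = 3.5e-08). Without r3, its highest 36h library, the bound was 492-fold.

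AC004080.1 had 0, 1.04 and 0 normalized counts at t0 and 52.8, 867 and 2321 at 36h, at least 377-fold higher (log2 fold change 11.59 ± 2.03; edgeR, Benjamini-Hochberg adjusted p = 5.0e-04). HOXA-AS2 had 2.08, 1.04 and 0 at t0 and 4.91, 42.7 and 948 at 36h, at least 116-fold higher (log2 fold change 8.02 ± 1.49; edgeR, Benjamini-Hochberg adjusted p = 8.8e-04). The groups did not overlap for either RNA, but r3 was the highest for both. Without r3 the bound was 148-fold for AC004080.1 (log2 fold change 9.58) and 7.65-fold for HOXA-AS2 (3.82), so that of HOXA-AS2 rests on r3. Without r2 or without r3 neither RNA passed, with adjusted p of 0.055 and 0.046 for AC004080.1 and 0.064 and 0.14 for HOXA-AS2 (edgeR, Benjamini-Hochberg). Without r2 the log2 fold changes were 13.56 for AC004080.1 and 8.74 for HOXA-AS2. Over all genes the calls fell from 589 to 83 and 92 in the refits without r2 and without r3.

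These 3 of 10 RNAs compare with 2.71% of the 21750 genes tested that were called in either direction. A gene was called where its adjusted p was under 0.01, its level changed by 2 times or more and its compared libraries averaged 100 or more normalized counts. The median log2 fold change was 5.71 over the 10 RNAs and 0.00 over all genes tested. HOXB-AS1, antisense to HOXB2 and HOXB3, went from 1.04, 0 and 0 to 9.82, 16.2 and 275, at least 35-fold higher with a log2 fold change of 7.71 ± 1.27 (edgeR, Benjamini-Hochberg adjusted p = 2.7e-04), but missed the minimum mean. Without r3 its log2 fold change was 4.38 (edgeR, Benjamini-Hochberg adjusted p = 0.066), and the bound was 4.18-fold, so it rests on r3. HAGLR (11.4, 5.18 and 8.73 at t0; 23.3, 187 and 1236 at 36h) and HOXA-AS3 (13.5, 13.5 and 7.94; 13.5, 16.2 and 837) had adjusted p of 0.015 and 0.019 in the same edgeR test with Benjamini-Hochberg adjustment. For these RNAs, too, r3 was the highest 36h library. HOTTIP and HOXC-AS1 were at or under 3 counts in all libraries of both groups.

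From 36h to P1, HOXB-AS3 alone was called, against 1.19% of the 21750 genes in either direction. HOXB-AS3, which runs antisense through HOXB3 to HOXB6, had 14.7, 6.93 and 75.8 normalized counts at 36h and 103, 10425 and 8722 at P1. The log2 fold change was 7.65 ± 1.64 (edgeR, Benjamini-Hochberg adjusted p = 0.0058). Each P1 library was above each 36h library, with r1 far below r2 and r3. The pluripotency genes POU5F1 and NANOG summed to between 20864 and 51637 normalized counts at 36h and between 169.7 and 30309 at P1. Their part in the P1 results was not tested. The call was lost without r2 (log2 fold change 6.84, adjusted p = 0.26) or without r3 (9.34, adjusted p = 0.076, both edgeR with Benjamini-Hochberg), where 2 and 12 genes in all were called in place of 259. HAGLR, antisense to HOXD1, had 553, 8051 and 7557 at P1, with r1 again the lowest, and an adjusted p of 0.083 (edgeR, Benjamini-Hochberg). HOXA-AS3 reached 669.8, 10456 and 3616 (edgeR, Benjamini-Hochberg adjusted p = 0.088).

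Between P1 and P5 HOTAIR rose and HOTAIRM1 fell, so that 2 of the 10 were called, against 4.00% of all genes in either direction. HOTAIR had 16.4, 6.2 and 3.16 normalized counts at P1 and 450.2, 6232 and 1309 at P5, a log2 fold change of 8.18 ± 1.53 (edgeR, Benjamini-Hochberg adjusted p = 7.9e-04). The rise was underway at P4, where the libraries had 43.9, 3740 and 195. HOTAIRM1 went from 1284, 3087 and 5077 to 727, 648 and 416, a log2 fold change of -2.46 ± 0.58 (edgeR, Benjamini-Hochberg adjusted p = 0.005). No P5 library of HOTAIRM1 reached the lowest P1 library. Both calls were lost without r2 or without r3, where adjusted p was 0.027 and 0.052 for HOTAIR and 0.11 and 0.16 for HOTAIRM1 (edgeR, Benjamini-Hochberg). The log2 fold changes were then 6.83 and 7.89 for HOTAIR and -2.57 and -1.69 for HOTAIRM1. Over all genes the calls fell from 871 to 105 and 107. The neuron markers summed to between 1996 and 5300 normalized counts at P1 and between 77.3 and 542 at P5. The mesoderm markers summed to between 205 and 13362 at P1 and between 57.7 and 118 at P5. POU5F1 and NANOG summed to between 169.7 and 30309 at P1 and between 22.4 and 37.9 at P5. The part of these markers in the P1 to P5 changes was not tested.

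HOXC-AS1, which lies within HOXC9, had 0, 14.9 and 7.89 at P1 and 238, 143 and 117 at P5, with no overlap (log2 fold change 4.07 ± 0.97; edgeR, Benjamini-Hochberg adjusted p = 0.0067). Its mean was below the minimum for a call, and its adjusted p was 0.042 without r2, 0.12 without r3 and 0.013 without the block on differentiation (edgeR, Benjamini-Hochberg; log2 fold changes 4.72, 4.22 and 4.35). HOXB-AS3, HOXA-AS3 and HAGLR had 2190 or more normalized counts in every P2 library and had log2 fold changes of -0.24 ± 1.19, 0.38 ± 1.10 and 0.26 ± 1.12 from P1 to P5. Per transcript length, HOXB-AS3 was the most abundant of the 10 at P5, at 704 ± 211 TPM (SD, n = 3), followed by HOXA-AS3 at 118 ± 66, HAGLR at 90.2 ± 13.7 and HOTAIR at 70.6 ± 84.9. The last 3 did not differ beyond their spread. HOTAIRM1 had 39.4 ± 11 TPM, HOXC-AS1 20.6 ± 8.17, HOXA-AS2 11.1 ± 3.91, AC004080.1 9.31 ± 3.84, HOXB-AS1 7.61 ± 0.822 and HOTTIP 0.487 ± 0.573.

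HOTTIP was the last to rise. It was at or under 3 counts from t0 to P3 in every library. It had 0.79, 70.7 and 14.2 normalized counts at P5 and 29.1, 1004 and 1048 at P8, with r1 far behind in both groups. The log2 fold change from P5 to P8 was 4.60 ± 0.94, which missed the threshold (edgeR, Benjamini-Hochberg adjusted p = 0.043). No member was called between P5 and P8, against 0.00920% of genes in either direction, which is 2 of 21750. At an unadjusted p under 0.05 there were 3 members, HOTTIP, HOTAIR and AC004080.1, and 2892 genes. DESeq2 called 1 member, HOTTIP (Benjamini-Hochberg adjusted p = 0.0053), and 155 genes. HOTAIR reached 9080, 8298 and 6638 at P8, each above its own P5 library.

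In 4 of the 5 libraries of P9 and P10, all but P10 r1, 6 of the 10 RNAs lay below every P8 library, as 12.0% of the 21750 genes did. HOTTIP lay above every P8 library in the same 4, as 10.7% of genes did. Both counts are descriptions and not tests, since P10 r1 was set apart here on the values of these same RNAs. The paper, from principal components, placed P10 r1 in a group with its P8 libraries. HOXB-AS3 had 6852, 4146 and 893 normalized counts at P8, 89.7 and 146 at P9, and 4571, 22.7 and 7.32 at P10. HAGLR had 7699, 6221 and 2765 at P8, 449.6 and 978 at P9, and 6261, 93 and 54 at P10. HOTAIR had 1569 and 1708 at P9 and 9507, 716 and 587 at P10. In all 3, P10 r1 was the highest library of P9 and P10 and far above P9 r1 of the same differentiation.

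HOTTIP had 3069 and 1889 at P9 and 516, 3344 and 3764 at P10. With P10 r1 included, no member was called, against 1.25% of genes in either direction. At an unadjusted p under 0.05 there were 6 members and 5708 genes, and DESeq2 called no member and 740 genes. HOTTIP had a log2 fold change of 3.39 ± 0.85 (edgeR, Benjamini-Hochberg adjusted p = 0.017). Without the block on differentiation it was 1.87 (edgeR, Benjamini-Hochberg adjusted p = 0.35). With the block, HOXC-AS1 had -3.60 ± 0.81 (edgeR, Benjamini-Hochberg adjusted p = 0.01). HOXB-AS3 had -3.44 ± 1.12 (edgeR, Benjamini-Hochberg adjusted p = 0.051).

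Without P10 r1, 4 of 10 were called against 4.64% of 21699 genes in either direction. This alternative was added after the data were seen, and its choice rests on these RNAs' own values. HOXB-AS3 (log2 fold change -6.36 ± 1.01, adjusted p = 1.0e-04), HAGLR (-4.73 ± 0.81, adjusted p = 2.4e-04) and HOTAIR (-3.27 ± 0.76, adjusted p = 0.0036) fell in this edgeR fit with Benjamini-Hochberg adjustment. HOTTIP rose (3.37 ± 0.84, edgeR, Benjamini-Hochberg adjusted p = 0.0073). With all libraries of r1 left out, HOTTIP was not called (1.12 ± 0.49, edgeR, Benjamini-Hochberg adjusted p = 0.14) and HOTAIRM1 was (-1.94 ± 0.36, edgeR, Benjamini-Hochberg adjusted p = 0.0028).

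The summed EPI markers SOX2, CDX2, NKX1-2 and NEUROG2 were between 8592 and 33359 normalized counts at P8, 770.3 and 858 at P9 and between 181 and 21151 at P10. The 6 MES markers, which include SOX10 and TFAP2B, summed to between 5842 and 40972 at P8, between 45088 and 46325 at P9 and between 9920 and 44137 at P10. The neuron markers ELAVL3 and STMN2 summed to between 143 and 2847 at P8, between 1177 and 1970 at P9 and between 3680 and 7528 at P10. No marker of these lists was at or under 3 counts in every library of any of these groups. Their part in the late changes was not tested, and in bulk samples fewer cells of a type cannot be told apart from less RNA per cell.

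Over the whole span, P8 against t0, a comparison added after the data were seen, 7 of the 10 were called higher, against 15.4% of 21750 genes called in either direction. The other 3, HOXB-AS1, HOXC-AS1 and AC004080.1, missed the minimum mean or the adjusted p. HOTTIP was at least 242-fold higher (374-fold without r1) and HOTAIRM1 at least 232-fold, with HOTAIR at a log2 fold change of 11.07 ± 1.63 (edgeR, Benjamini-Hochberg adjusted p = 7.1e-06). Without r2, 3 of the 10 were called, against 9.33% of 22526 genes.

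The differentiations did not keep the same pace. Taking as onset the first time point with at least 100 normalized counts in that differentiation, onset in r1 was no earlier than in r2 or r3 for 9 of the 10 RNAs, and later than in both for 5. HOTAIR reached 100 at P3 in r2, P4 in r3 and P5 in r1. HOTTIP did so at P6, P7 and P9, and its neighbour HOXA13 at P4, P5 and P6, in the same order of differentiations. The exception was HOXC-AS1, at P2 in r1 and at P4 and P3 in r2 and r3.

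**Figure D2:**
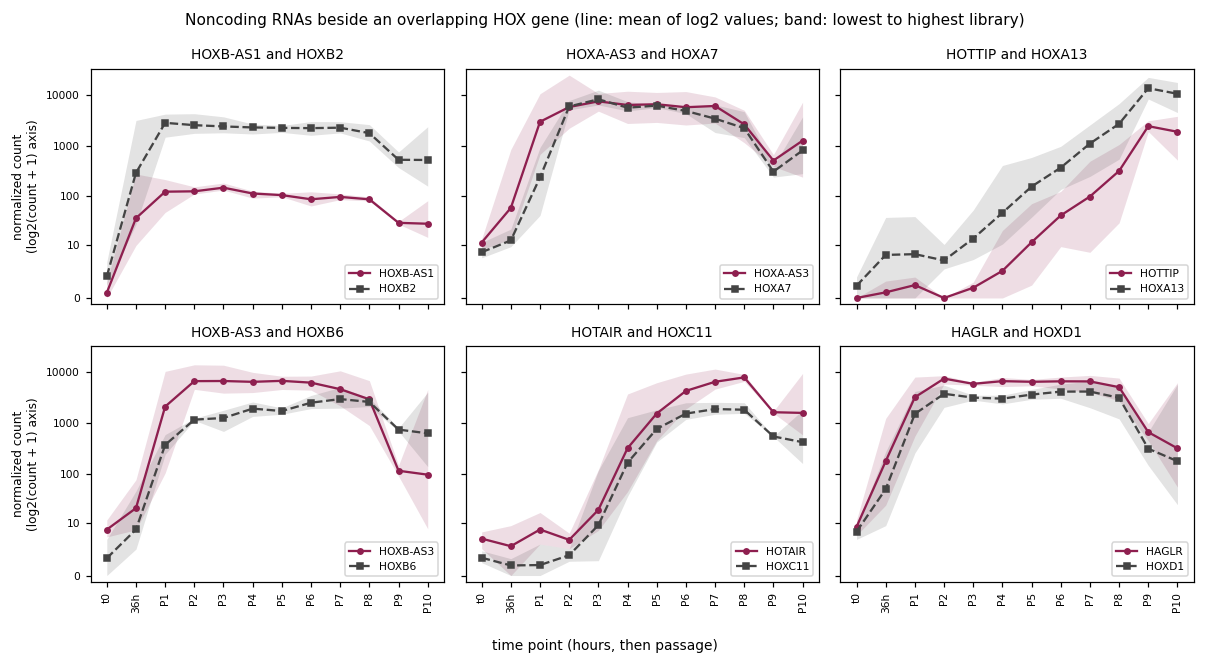
Normalized counts of 6 RNAs (solid, circles) and an overlapping HOX gene (dashed, squares) on a log2(count + 1) scale against time point, as means of log2 values with a band from the lowest to the highest library. HOXB-AS1 and HOXB2 rise together from 36h, HOTTIP lies below HOXA13, HOTAIR rises with HOXC11, and HOXA-AS3 is ahead of HOXA7 at P1.

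Set beside their neighbours, the group onset (mean of at least 100) fell at the same time point in 19 of 36 pairs of an RNA and an overlapping or nearest HOX gene, later for the RNA in 9 and earlier in 8. HOTTIP passed 100 at P7 and HOXA13, the terminal gene of the cluster, at P4, but HOXA13 was the more abundant. By the first mean of at least 10% of each gene's own highest, onset was P8 for HOTTIP and P7 for HOXA13, and the ratio of their mean TPM was between 0.244 and 0.386 from P6 to P10. HOXA-AS3 passed 100 at 36h through r3 alone and HOXA7 at P1. HOXC11 rose between P1 and P5 (log2 fold change 8.94 ± 1.52; edgeR, Benjamini-Hochberg adjusted p = 3.6e-04), as HOTAIR did.

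Per length, the RNAs and their neighbours stood in different ratios. At P8 HOTAIR had 209 ± 36.6 TPM (SD, n = 3) and HOXC11 34.8 ± 12.1. HOXB-AS3 had 704 ± 211 TPM at P5 and HOXB6 53.5 ± 7.75. The ratio of their mean TPM was 57.9 at P1, 13.2 at P5, 4.8 at P8 and 0.574 at P9. HOTTIP had 42.4 ± 15.2 TPM at P9 (n = 2) and HOXA13 135 ± 85.6. HAGLR at 90.2 ± 13.7 TPM and HOXD1 at 83 ± 19.5 did not differ beyond their spread at P5.

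**Figure D3:**
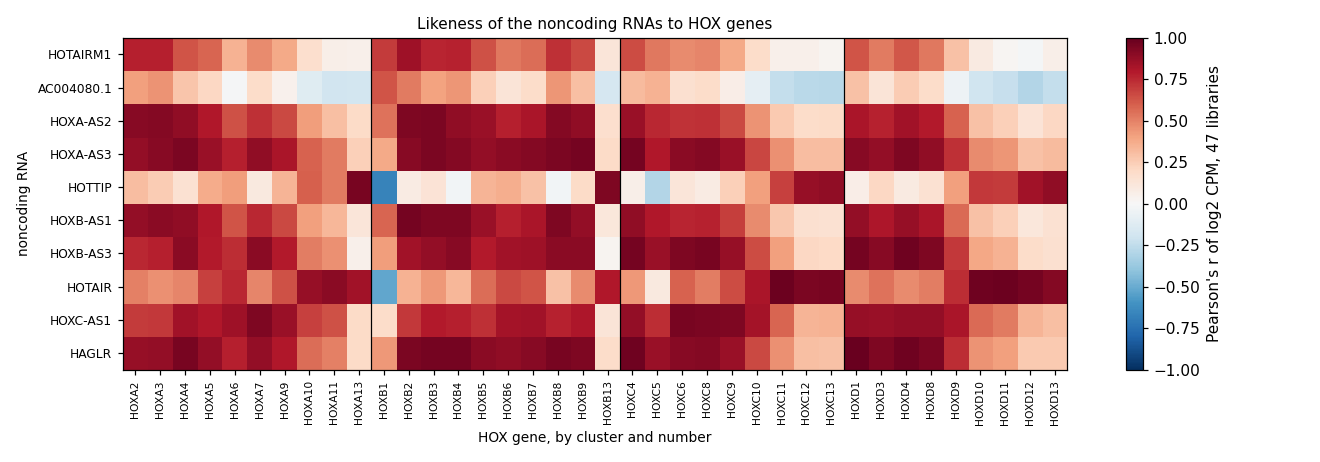
Pearson's r of log2 CPM over 47 libraries between each RNA (rows) and HOX genes (columns, by cluster and number), from -1 (blue) to 1 (red). HOTTIP and HOTAIR have their highest r with late genes such as HOXA13 (0.95) and HOXC11 (0.98).

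Likeness of course was measured as Pearson's r of log2 CPM over the 47 libraries, which share the course of differentiation, as a description with no test. Several RNAs were most alike to a HOX gene that they overlap, as HAGLR and HOXD1 (r = 0.99), HOTAIR and HOXC11 (0.98), HOXB-AS1 and HOXB2 (0.96), HOTTIP and HOXA13 (0.95) and HOXC-AS1 and HOXC6 (0.95). HOXA-AS2, HOXA-AS3 and HOXB-AS3 were most alike to genes of other clusters, at r of 0.94 for HOXB3, 0.96 for both HOXC4 and HOXB9, and 0.97 for HOXD4. HOTAIR had an r of 0.98 with HOXD11 also, a gene on another chromosome.

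AC004080.1 differed from the rest. Its r was -0.18 with HOXA13, 0.98 with EVX1-AS and 0.93 with EVX1, a homeobox gene next to the cluster, and these 2 were the most alike of 22065 genes. EVX1 averaged 5059 normalized counts at 36h and 50.3 at P8, and AC004080.1 peaked at 36h in r2 and r3 and at P2 in r1. Between RNAs of the set, HOXB-AS3 and HAGLR were the most alike (r = 0.94) and AC004080.1 and HOTTIP the least (r = -0.27).

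Outside the HOX clusters, the genes most alike to each RNA were as follows. HOTAIRM1 was closest to LEF1-AS1, ANP32B and CRABP2 (r = 0.90 each), and HOTTIP to PCOLCE2 (0.96), EVX2 (0.96) and DLX6-AS1 (0.95). HOTAIR was closest to LBX2-AS1 (0.96), AC005041.3 (0.95) and TLR4 (0.94). HOXB-AS3 was closest to ZBTB16 (0.97), LINC01571 (0.94) and LINC02381 (0.94), and the last 2 were also among the 3 closest to HOXA-AS3 (0.94 and 0.93, with MLLT3 at 0.93) and HAGLR (0.95 and 0.93, with ZKSCAN2 at 0.92). HOXB-AS1 was closest to STRA6 (0.92), RGMB-AS1 (0.90) and TMEM231 (0.89), and HOXA-AS2 to AL031058.1 (0.89), RGMB-AS1 (0.88) and EFCAB1 (0.87). HOXC-AS1 was closest to LINC01116 (0.92), C3orf52 (0.92) and ZBTB16 (0.91). After EVX1-AS and EVX1, AC004080.1 was closest to TCHP (0.82).

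The 39 HOX genes gave 7 higher calls at 36h, 7 at P1, and 15 higher and 2 lower between P1 and P5. Of 9 other noncoding RNAs of the clusters, 8 were tested. None was called at 36h or P1, while HOXA10-AS, HOXA11-AS, HOXC-AS2 and HOXC-AS3 were called higher between P1 and P5. Of 12 regulators listed for their known ties to HOX genes, CDX1 and CDX2, caudal-type factors that activate HOX genes, rose at 36h and JARID2, a Polycomb cofactor, fell (log2 fold changes 11.31 ± 1.29, 9.57 ± 1.42 and -1.61 ± 0.32; edgeR, Benjamini-Hochberg adjusted p = 2.4e-06, 8.1e-05 and 0.0014). Between P1 and P5 GDF11, a TGF-beta family ligand known for its effect on late HOX genes, rose (2.18 ± 0.28; edgeR, Benjamini-Hochberg adjusted p = 1.8e-05) and CDX1 fell (-6.73 ± 1.00; edgeR, Benjamini-Hochberg adjusted p = 9.6e-05). WDR5 and EZH2, subunits of the MLL complexes and of Polycomb repressive complex 2, were called in neither comparison.

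**Figure D4:**
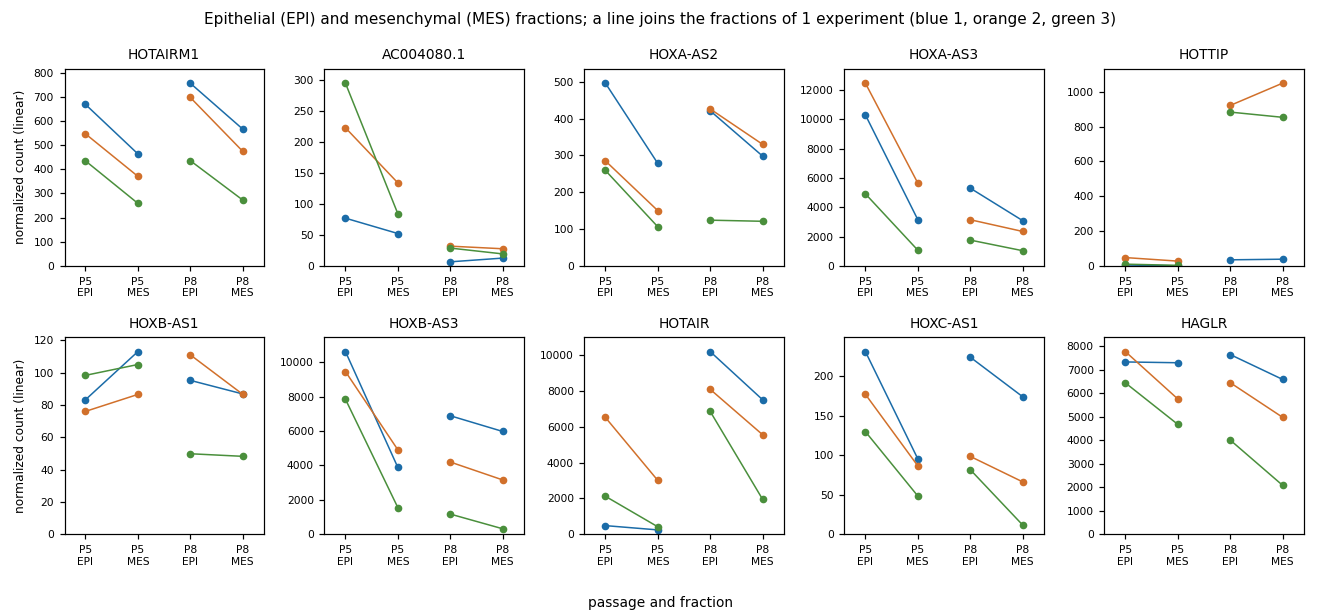
Normalized counts (linear y axis from 0) in the EPI and MES fractions of P5 and P8, with a line joining the fractions of 1 differentiation. At P5 all lines fall from EPI to MES except those of HOXB-AS1.

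The last comparison asks how the RNAs differ between the fractions of a culture. At P5, 9 of the 10 were lower in MES than in EPI in all 3 differentiations, where 30.1% of the 18885 genes tested were. HOXA-AS3 had 10308, 12473 and 4917 normalized counts in EPI and 3156, 5655 and 1071 in MES. HOXB-AS3 had 10619, 9460 and 7849 in EPI and 3885, 4910 and 1551 in MES, and HOXC-AS1 231, 177 and 129.8 against 95.4, 86.5 and 48.4. For HOXB-AS3 and HOXC-AS1 the fractions did not overlap, which at 2 of 10 is close to the 15.2% of genes that were lower in MES without overlap. The same direction was seen in 38 of the 39 HOX genes, with a median log2 fold change of -0.94 beside -1.14 for the 10 RNAs, and the r1 pair of HAGLR, at 7332 and 7298, barely differed.

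HOXB-AS1 was the exception, with 83.2, 76 and 98.3 in EPI and 113, 86.5 and 105 in MES. With the differentiation as a block over both passages, none of the 10 was called, as 0% of the 18885 genes were in either direction. This block gives a differentiation a shared offset over both passages and not an offset for each culture. Deviations of same-numbered libraries correlated at 0.65 within P5 and at 0.42 over the 4 fraction groups. The paper, at the same thresholds, reports genes that differed in both directions between the P5 fractions. At an unadjusted p under 0.05 there were 6 members and 4894 genes, and DESeq2 called 1 member, HOXA-AS3, and 674 genes. HOXA-AS3 had a log2 fold change of -1.61 ± 0.30 (edgeR, Benjamini-Hochberg adjusted p = 0.022). With the block set within each passage, added after the data were seen, HOXA-AS3 was called (-1.66 ± 0.19; edgeR, Benjamini-Hochberg adjusted p = 0.0054), against 1.62% of genes in either direction.

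At P8, 8 of the 10 were lower in MES in all 3 differentiations, where 24.3% of genes were, and none was called, as 0% of genes were in either direction. At an unadjusted p under 0.05 there were 2 members and 2261 genes, with HOTAIRM1 at 0.0012 and HOXA-AS3 at 0.047 (edgeR, Benjamini-Hochberg adjusted p = 0.26 and 0.41). DESeq2 called 55 genes and no member, and the block within each passage called 0 genes. HOTAIR had 10192, 8085 and 6852 in EPI and 7505, 5554 and 1949 in MES. HOTTIP had 34.6, 921 and 883 in EPI and 38.2, 1049 and 853 in MES, and so followed the differentiation and not the fraction. The change of the MES against EPI difference from P5 to P8 was called for none of the 10 and for 0% of genes in either direction. At an unadjusted p under 0.05 there were 0 members and 1152 genes, and DESeq2 called 1 gene and no member.

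The EPI markers summed to between 23790 and 36161 normalized counts in P5 EPI and between 4456 and 12450 in P5 MES, and the MES markers to between 3357 and 10798 and between 17413 and 26877. At P8 the sums overlapped, at between 9979 and 32065 in EPI and between 2801 and 21799 in MES for the EPI markers, and at between 4970 and 40307 and between 12051 and 52259 for the MES markers. None of these markers was at or under 3 counts in every library of a fraction group. Their part in the differences between fractions was not tested.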

How the data were processed

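RNA of 47 libraries of WA09 (H9) cells was read as polyA-selected, 75 bp single-end reads. The authors quantified each library and deposited RSEM expected counts per gene, which need not be whole, and TPM values, which RSEM scales by effective length and per library. The submitters' processing notes name cutadapt 1.16, STAR 2.5.2b, RSEM 1.3.0 and GRCh38. The annotation release and strand setting are not given in the sources used here. Gene symbols and coordinates are from GENCODE 29, which matched 57447 of 58051 identifiers.

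Expected counts were rounded. Normalized counts are rounded counts divided by TMM size factors over all 47 libraries. The quasi-likelihood test of edgeR 4.0.16 (with limma 3.58.1, in R 4.3.3) was run after filterByExpr, with Benjamini-Hochberg adjustment over 21750 genes for the 35 whole cultures and 18885 for the 12 fraction libraries. Calls were made at an adjusted p under 0.01, a change of 2 times or more and an average of 100 or more normalized counts. The replicate number was a block, and was taken as 1 differentiation followed through all time points. Deviations from the group means correlated at 0.14 on average for libraries of the same number and -0.07 for others in the time course, where 84 of 187 same-numbered pairs were over 0.1 and the 3 of t0 and 36h were not, and at 0.65 and 0.78 between same-numbered fractions of P5 and P8. Of 7 same-numbered pairs among P8, P9 and P10, 2 were over 0.1. No pair of replicates agreed within sampling noise. Likeness used log2 CPM with a prior count of 2. A floor of 3 counts set the lower bounds, which cover counting error only, since reads carried no molecular identifiers. The median library held 47292229 expected counts (lowest 13029491, highest 64082859).

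The scripts were tested on simulated data. Alternatives were DESeq2 1.42.0, its size factors, no block, no filter, other sets of libraries, other thresholds and each replicate left out. The members, lists and tests were chosen with earlier results of these data known. The genes named are the 10 RNAs, their overlapping and nearest HOX genes, the 3 genes outside the clusters most alike to each, and genes of the fixed lists, of which some items are not reported here.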

Additional observations from a re-analysis of the deposited data

Results flagged for a closer look

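HOXB-AS1 was higher in MES than in EPI in all 3 differentiations at P5 and lower in all 3 at P8, so that every pair moved one way at one passage and the opposite way at the other. The P8 minus P5 difference of the log2 fold changes was -0.44 ± 0.44 (edgeR, Benjamini-Hochberg adjusted p = 0.9), so the change of direction did not pass the test of the difference itself.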

How the results depend on the processing

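Of 243 refits of single log2 fold changes, none reversed direction, 215 stayed on the same side of the thresholds, 17 lost the call and 11 gained it. Without the replicate block (no replicate block), the number of RNAs called was the same in each comparison: 3 at 36h, 1 at P1, 2 from P1 to P5, 0 from P5 to P8, 0 at P9 and P10, 0 in each fraction comparison and 7 for P8 against t0. The main values were these counts with the block. For 36h against t0, DESeq2, all 47 libraries in the fit and an adjusted p under 0.05 each gave 5, with 881, 749 and 964 genes called in all in place of 589. With only the compared libraries, 2 were called at 36h, 0 at P1 and 0 from P1 to P5. In the same order, 168 of 18261, 0 of 17426 and 2 of 17386 genes were called in all. From P5 to P8, DESeq2 and an adjusted p under 0.05 gave 1 (155 and 39 genes in all). At P9 and P10, all 47 libraries and an adjusted p under 0.05 gave 1 (508 and 786 genes in all), and leaving out P10 r1 gave 4 (1007 genes). At P5, MES against EPI, DESeq2, an adjusted p under 0.05 and the block within each passage gave 1 (674, 503 and 305 genes in all). Leaving out each replicate in turn gave from 1 to 4 at 36h, 0 to 2 at P1, 0 to 2 from P1 to P5, 0 to 1 from P5 to P8, 0 to 4 at P9 and P10 and 3 to 7 for P8 against t0. Over all genes these refits called from 83 to 891, 2 to 955, 105 to 1232, 0 to 100, 0 to 928 and 2102 to 3732 in the same order. The cause was not tested. Onset was the same for 7 of 10 RNAs at 10% of the highest mean or a TPM of 1, and for 7 to 10 with a replicate left out. The median r with HOX neighbours was 0.90, and 0.72 to 0.93 under the alternatives.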
